A study of Caenorhabditis elegans with 4 samples.

Results

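The fbxa genes are one of the lettered families of F-box genes of Caenorhabditis elegans, and the data show which of them lie under binding sites of the chromatin protein MRG-1. Members were the protein-coding genes whose symbol starts with fbxa-, and there are 170 of them among 19971 protein-coding genes of the 6 nuclear chromosomes. A gene is called marked where a peak overlaps its annotated span by at least 1 base. The animals were hermaphrodites of the strain fem-2(b245), genotype fem-2(b245)III, kept at 20 °C, and every sample carries that allele. Chromatin immunoprecipitation and sequencing (ChIP-seq) was done on 2 samples with a polyclonal antibody to MRG-1 that had been raised in rabbit and purified by affinity, and the values of the 2 input samples (genomic DNA not put through the antibody) are not analysed here. The stage is labelled young adult with a germline, whereas the growth protocol speaks of gravid adults.

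F-box proteins are the interchangeable subunits of SCF ubiquitin ligases: the F-box binds a Skp1-like protein, which binds a cullin, and the rest of the F-box protein binds the target that is to be ubiquitinated. C. elegans has an unusually large number of F-box genes, most of them young duplicates found in tandem clusters, and those of the fbxa class mostly pair the F-box with a region called FTH, named after homology to FOG-2, a protein needed for hermaphrodites to make sperm. MRG-1 is a chromodomain protein related to mammalian MRG15 and is best known from germ cells, while fem-2, a protein phosphatase gene, acts in sex determination and is needed for male development and sperm.

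The measurements are 3 lists of peaks: 2769 peaks in replicate 1, 3895 in replicate 2 and 12147 in a list for the whole series. The lists hold no read counts, so the depth behind a call is unknown, and a gene without a peak is one at which the signal did not pass the caller's threshold. They do not show how reads that fit more than 1 gene copy were treated. What this means for calls at duplicated genes was not tested. The lists hold no expression values either, so stage and tissue could not be checked against marker genes. Whole animals were used, and a peak present in few cells cannot be told apart from a weaker peak in many. Whether separate cultures gave the replicates is not in the labels, so the SD over them may be technical. With 2 samples of 1 kind no test of a difference was made, and differences are set against that SD. It does not measure the spread between genes or loci.

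Few fbxa genes were marked. Replicate 1 marked 30 of the 170, or 17.6%, where it marked 30.2% of all protein-coding genes, and replicate 2 marked 16, or 9.41%, where it marked 28.1% of all. The mean was 13.5% ± 5.82 for fbxa genes and 29.3% ± 1.46 for the other protein-coding genes (SD, n = 2 each), a gap wider than either SD. Both replicates marked 16 fbxa genes, or 9.41%, against 24.4% of all genes. The series-wide list marked 30, or 17.6%, against 32.7% of all genes. Every fbxa gene of replicate 2 was also marked in replicate 1, so 14 were marked in replicate 1 alone and none in replicate 2 alone. For the other 19801 genes, replicate 1 alone marked 1136 and replicate 2 alone marked 727. The median span was 1700.5 bp for fbxa genes and 2012 bp for the others, and a longer span meets a peak more easily. When only the middle base of each span was asked to lie under a peak, 13.5% and 7.65% of fbxa genes were marked in replicates 1 and 2, against 22.5% and 19.9% of all protein-coding genes.

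The family is not marked alike from chromosome to chromosome. Chromosomes III and V hold most of it, with 60 and 71 genes, and the rest are on II (14), X (14), I (6) and IV (5). Leaving out III narrowed the gap to the other genes: without that chromosome, 22.7% and 14.5% of the remaining 110 fbxa genes were marked in replicates 1 and 2, against 27.7% and 24.9% of the other genes there. The gap was also smaller against near neighbours. Of the 1607 other genes within 50 kb of any fbxa gene, a comparison chosen after the data were seen, 17.5% and 14.6% were marked. The means were 13.5% ± 5.82 for fbxa genes and 16.1% ± 2.11 for these neighbours (SD, n = 2 each). That difference was smaller than the SD of the fbxa value. The neighbours are spread otherwise over the chromosomes: 914 lie on V and 182 on III, against 71 and 60 of the 170 fbxa genes. How much of the smaller gap comes from that mix was not tested.

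**Figure D1:**
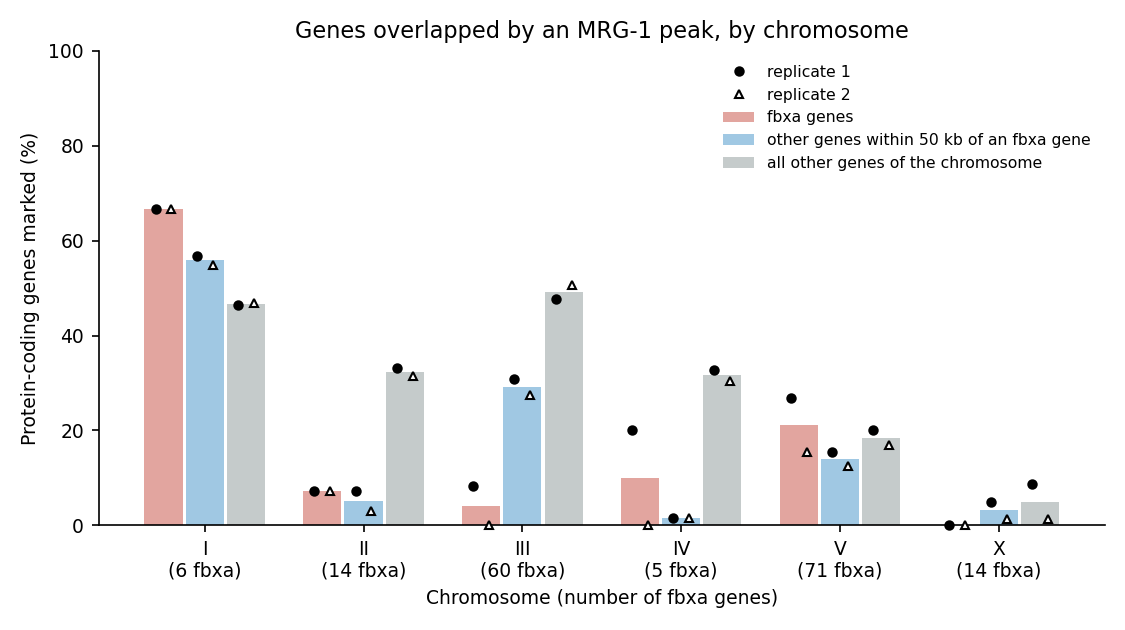
Percent of protein-coding genes overlapped by an MRG-1 peak on each chromosome, for fbxa genes, for other genes within 50 kb of one and for all other genes of the chromosome; bars are means of both replicates and symbols the replicates. On III the fbxa genes stand at 8.33% and 0% while the other genes stand near 50%, and on V fbxa and other genes overlap.

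On chromosome III, 5 of the 60 fbxa genes were marked in replicate 1 (8.33%) and none in replicate 2, whereas the other genes of III were marked at 47.7% and 50.7%. The means were 4.17% ± 5.89 for fbxa genes and 49.2% ± 2.08 for the others (SD, n = 2 each). Of these fbxa genes, 55 lie in the left 25% of the chromosome, where peaks are sparser. There the fbxa genes were marked at 9.09% and 0%, and the other 478 genes at 34.9% and 29.3%. Among the 182 other genes within 50 kb of an fbxa gene of III, 30.8% and 27.5% were marked. The shortfall on III was therefore present against the chromosome, against the same arm and against the neighbours within 50 kb. In each case it exceeded the SD of both groups, which is over the 2 replicates and does not measure spread between loci. Of the 60 fbxa genes, 52 lie in tandem clusters, 27 of them in 1 cluster, so they are not separate loci. The shortfall was not seen against genes inside the tandem clusters of III, described below. Their 2, 15 and 12 other genes held no marked gene in replicate 1 and 1 (of the 12) in replicate 2.

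On chromosome V, fbxa genes were marked about as often as other genes. Replicate 1 marked 19 of 71, or 26.8%, against 20.1% of the other genes, and replicate 2 marked 11, or 15.5%, against 16.9%. The means of 21.1% ± 7.97 for fbxa genes and 18.5% ± 2.28 for the others differed by less than the SD of the fbxa value, and the order of the groups was not the same in both replicates. In the right 25% of V, which holds 47 of the 71, fbxa genes were marked at 23.4% and 14.9%, and the other 1129 genes there at 10.01% and 8.06%. The means in that arm were 19.1% ± 6.02 and 9.03% ± 1.38 (SD, n = 2 each), a gap of more than 1 SD of each group. For the 914 other genes within 50 kb of an fbxa gene of V, the shares were 15.4% and 12.5%.

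On chromosome II, 1 of 14 fbxa genes was marked in each replicate (7.14%), against 33.1% and 31.4% of the other genes of II. Other genes within 50 kb were also rarely marked there, at 7.29% and 3.13% of 192. Against these neighbours the fbxa genes of II were thus not lower. On X, none of the 14 was marked in any list, while 8.65% and 1.25% of the other genes of X were, as were 7 and 2 of the 143 within 50 kb in replicates 1 and 2. On I, 4 of 6 fbxa genes were marked in each replicate, against 46.5% and 46.8% of the other genes of I. Of the 111 other genes within 50 kb there, 56.8% and 55.0% were marked. On IV, 1 of 5 was marked in replicate 1 and none in replicate 2, against 32.8% and 30.5% of the others and 1 of 65 genes within 50 kb in each replicate. With so few members on I and IV, 1 gene moves the share by a large step.

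Of the 16 genes marked by both replicates, 11 lie on V, 4 on I and 1 on II. At least 50% of the span was under peaks in 14 of them in replicate 1 and in 12 in replicate 2, and the whole span in 11 and 7. Other genes marked by both replicates were much alike: of 4864, 4037 and 3410 had at least 50% covered, and 3279 and 2197 the whole span. The median share covered was 100% in both groups in replicate 1, and 96.3% for fbxa against 94.5% in replicate 2. On V, fbxa-95, fbxa-94, fbxa-197 and fbxa-206 lay entirely under peaks in both replicates (100% of the span each). The first pair are tandem neighbours under a single peak per replicate, from 15569122 to 15581122 of V in replicate 1 and from 15569386 to 15580089 in replicate 2 (WormBase WS220). That peak also spans lsm-5, an Sm-like RNA-binding protein gene, atx-3, a deubiquitinase gene, and acs-2, an acyl-CoA synthetase gene. The gene fbxa-108 was covered over 100% and 99.6% of its span in replicates 1 and 2, fbxa-106 over 93.3% and 100%, fbxa-211 over 100% and 91.5%, and fbxa-210 over 100% and 58.4%.

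The other 3 of these genes on V were covered less completely. In fbxa-114, peaks covered 98.9% of the span in replicate 1 and 15.6% in replicate 2. In fbxa-199 they covered 47.4% and 26.5%, and in fbxa-84 26.5% and 19.7%. These partly covered genes lie at the edges of peaks that belong also to other genes. The peak over the end of fbxa-199 spans cyb-3, which encodes a cyclin B3 with roles in embryonic and meiotic divisions, and the peak at the end of fbxa-84 spans the cyclophilin genes cyn-3 and cyn-7.

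On chromosome I, fbxa-145 and fbxa-216 were covered over 100% of the span in both replicates, and the neighbours fbxa-101 and fbxa-140 over 100% in replicate 1 and over 93.0% and 92.9% in replicate 2. All 4 share their replicate 1 peaks with genes outside the family. The peak over fbxa-216 is 25343 bp wide in replicate 1 and holds 11 genes, among them exo-3, a DNA repair endonuclease gene, and ubc-12, which encodes the conjugating enzyme of the ubiquitin-like protein NEDD8. The peak over fbxa-101 and fbxa-140 is 15342 bp wide and spans tba-2, an alpha-tubulin gene, and pbs-2, a proteasome subunit gene. In replicate 2 each of this pair had a short peak of its own, of 1213 and 1496 bp. The sole marked gene of II, fbxa-3, was covered over 78.2% of its span in replicate 1 and 49.7% in replicate 2, by peaks at percentiles 24.4 and 14.6 of the scores in their lists.

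**Figure D2:**
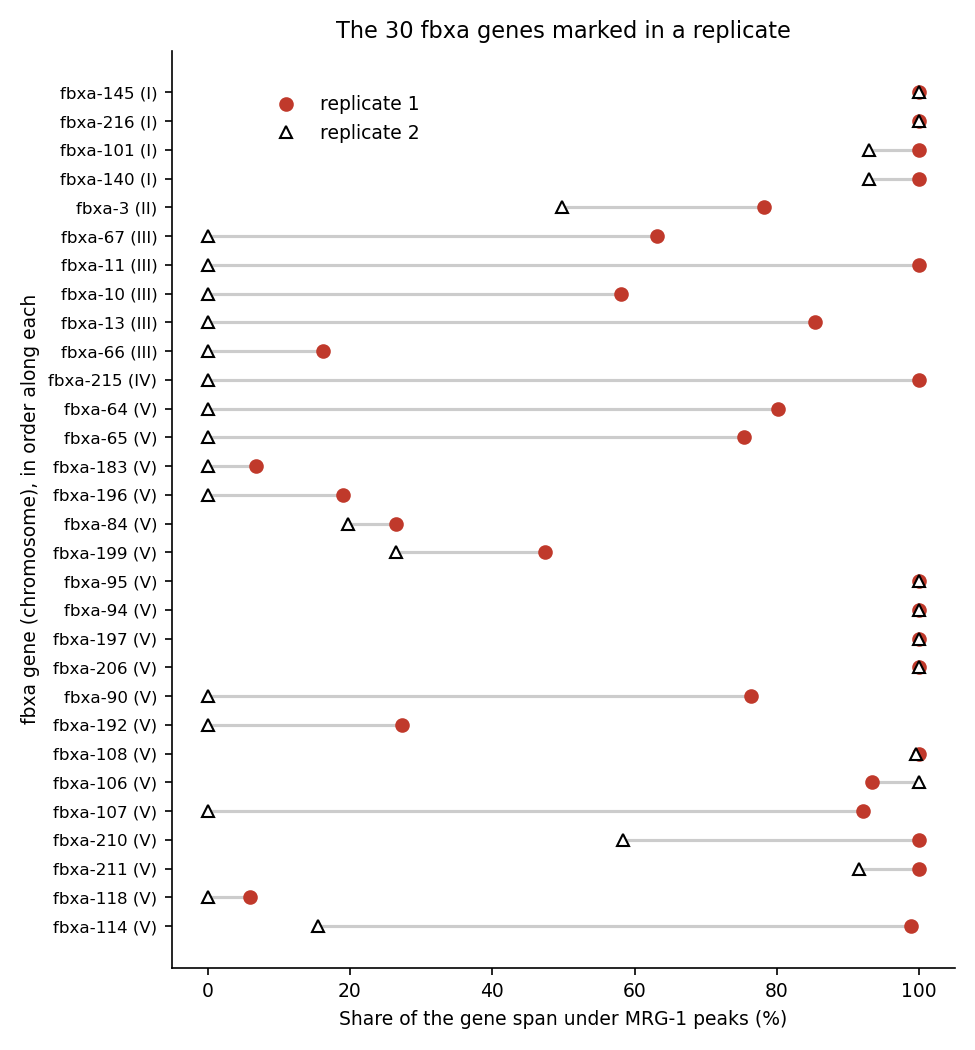
Share of the gene span under peaks, in percent, for each of the 30 fbxa genes marked in a replicate, with replicate 1 as circles and replicate 2 as triangles. The 5 genes of III and the gene of IV stand at 0% in replicate 2, and 14 genes in all do so.

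The 14 genes marked in replicate 1 alone split into well covered genes and genes touched at an end. Of these, 9 had at least 50% of the span under a replicate 1 peak. On III they were fbxa-11 (100%), fbxa-13 (85.4%), fbxa-67 (63.2%) and fbxa-10 (58.1%), and on IV fbxa-215 (100%). On V they were fbxa-107 (92.1%), fbxa-64 (80.2%), fbxa-90 (76.4%) and fbxa-65 (75.4%). Among the 1136 other genes marked in replicate 1 alone, 471 had at least 50% of the span covered. A single replicate 1 peak at 949294 to 953443 of III, 4150 bp wide and at percentile 51.2 of the scores, covered fbxa-67, fbxa-11 and fbxa-10 and no other gene. In replicate 2 the nearest peak to these neighbours lay 35.4, 37.8 and 39.4 kb away. The series-wide list did hold peaks over them, covering 32.9%, 96.2% and 31.5% of their spans.

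The other single-replicate calls differed in how near replicate 2 came to them. The peaks over fbxa-64 and fbxa-65 were among the lowest of replicate 1, at percentiles 3.49 and 8.05 of its scores, and replicate 2 had no peak within 284 and 216 kb of those genes. By contrast, replicate 2 came within 0.842 kb of fbxa-107 and 0.873 kb of fbxa-90. The replicate 1 peak over fbxa-90 also spans efl-1, which encodes an E2F transcription factor. Of the remaining 5 genes, covered over less than 50% in replicate 1, fbxa-66 and fbxa-196 had a replicate 2 peak 0.146 and 0.262 kb away. Gene spans and peaks come from different genome builds, taken to lie within about 200 bp of each other, so calls at such distances are uncertain.

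In replicate 1, most peaks over marked fbxa genes reached genes outside the family. Of its 25 peaks that overlapped an fbxa gene, 17 also overlapped another protein-coding gene, and 8 overlapped fbxa genes alone. Replicate 2 had 15 such peaks, 8 of them shared with another gene and 7 over fbxa genes alone. The share of all peaks that reach more than 1 gene is not given here. These peaks had a median width of 5221 bp (replicate 1) and 2835 bp (replicate 2), against 4393 and 2237 bp for all peaks over genes. Their median score stood at percentile 58.9 of replicate 1 and 62.5 of replicate 2, against 50.9 and 51.5 for all peaks over genes. The order was the other way among genes marked by both replicates, each given the peak that shared most bases with it. Both the set of genes and the way of counting differ there, and which of them turned the order was not tested. For fbxa genes marked by both replicates, the median percentile was 69.97 in replicate 1 and 65.2 in replicate 2. Other genes marked by both replicates stood higher, at 72.2 and 77.9. The peaks of those other genes were also wider, with medians of 9539 and 4778.5 bp, while the fbxa medians were 8743.5 and 3384 bp. Among genes marked in replicate 1 alone, also counted per gene, the median percentile was higher for fbxa genes (50.4) than for other genes (45.3).

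Marked fbxa genes had marked neighbours. In replicate 1, 20 of the 30 marked fbxa genes (66.7%) had a marked gene as their nearest non-fbxa neighbour on at least 1 side, against 12 of the 140 fbxa genes that were not marked (8.57%). In replicate 2 it was 13 of 16 marked fbxa genes (81.3%) and 15 of 154 unmarked ones (9.74%). In neither replicate did an unmarked fbxa gene have a marked neighbour on both sides. Some members were marked apart from their neighbours: fbxa-108 was nearly wholly covered in both replicates with no marked non-fbxa neighbour in either, and fbxa-197, beside the chemoreceptor genes srh-293 and str-57, had none in replicate 2. A peak of several kb covers more than 1 gene of this length, so neighbouring calls are not independent. The same shares for genes outside the family are not given here, so these values cannot be read as a trait of fbxa genes.

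The tandem clusters differed in how many of their genes were marked. Runs of at least 3 fbxa genes, with at most 50 kb from one to the next, gave 15 clusters with 108 members, of which 1 lies on II, 3 on III, 9 on V and 2 on X. In 7 clusters no fbxa gene was marked in either replicate, and in 10 none was marked in replicate 2. In 1 cluster all fbxa genes were marked in replicate 1. Of the clustered genes, 13.9% and 7.41% were marked in replicates 1 and 2, against 24.2% and 12.9% of the 62 fbxa genes outside clusters. The means were 10.6% ± 4.58 and 18.5% ± 7.98 (SD, n = 2 each), and they differed by less than the larger SD. The groups also differ in their chromosomes: 52 of the clustered genes lie on III, against 8 of those outside. On V, 25% and 18.2% of 44 clustered genes were marked, against 29.6% and 11.1% of 27 outside. On III the shares were 7.69% and 0% in clusters, and 12.5% and 0% outside.

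The largest cluster, from fbxa-61 to fbxa-138 on III, holds 27 fbxa genes over 145 kb. No fbxa gene in it was marked in either replicate, and neither were the 15 other genes that lie between its ends. Yet peaks stood nearby: within 50 kb outside the cluster, 9 of 18 other genes were marked in replicate 1 and 7 in replicate 2. The first gene lay 29.1 kb from a peak in each replicate, and the last lay 26.2 and 28.7 kb away. The series-wide list touched fbxa-63 over 7.51% of its span. In the 2 replicate lists, then, a stretch without peaks covered the whole of the largest tandem array, with marked genes within 50 kb of it.

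The other clusters of III were marked in part. In the cluster from fbxa-12 to fbxa-66, with 15 fbxa genes over 94.3 kb, only the last, fbxa-66, was marked in a replicate, over 16.3% of its span in replicate 1, where a peak shared with iffb-1 reaches into it. Peaks covered 0.731% and 0.758% of this cluster in replicates 1 and 2. In the cluster from fbxa-55 to fbxa-51, with 10 fbxa genes over 30.4 kb, the 3 marked genes were fbxa-67, fbxa-11 and fbxa-10 in replicate 1, described above. Peaks of replicate 1 covered 13.6% of this cluster, those of replicate 2 covered 0%, and series-wide peaks covered 9.93%. Around that cluster the replicates disagreed: of the 19 other genes within 50 kb outside it, none was marked in replicate 1 and 9 were in replicate 2, so the fbxa genes were marked in one replicate and the flanks in the other. The series-wide list marked 3 of the fbxa genes and 9 of the flanking genes.

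**Figure D3:**
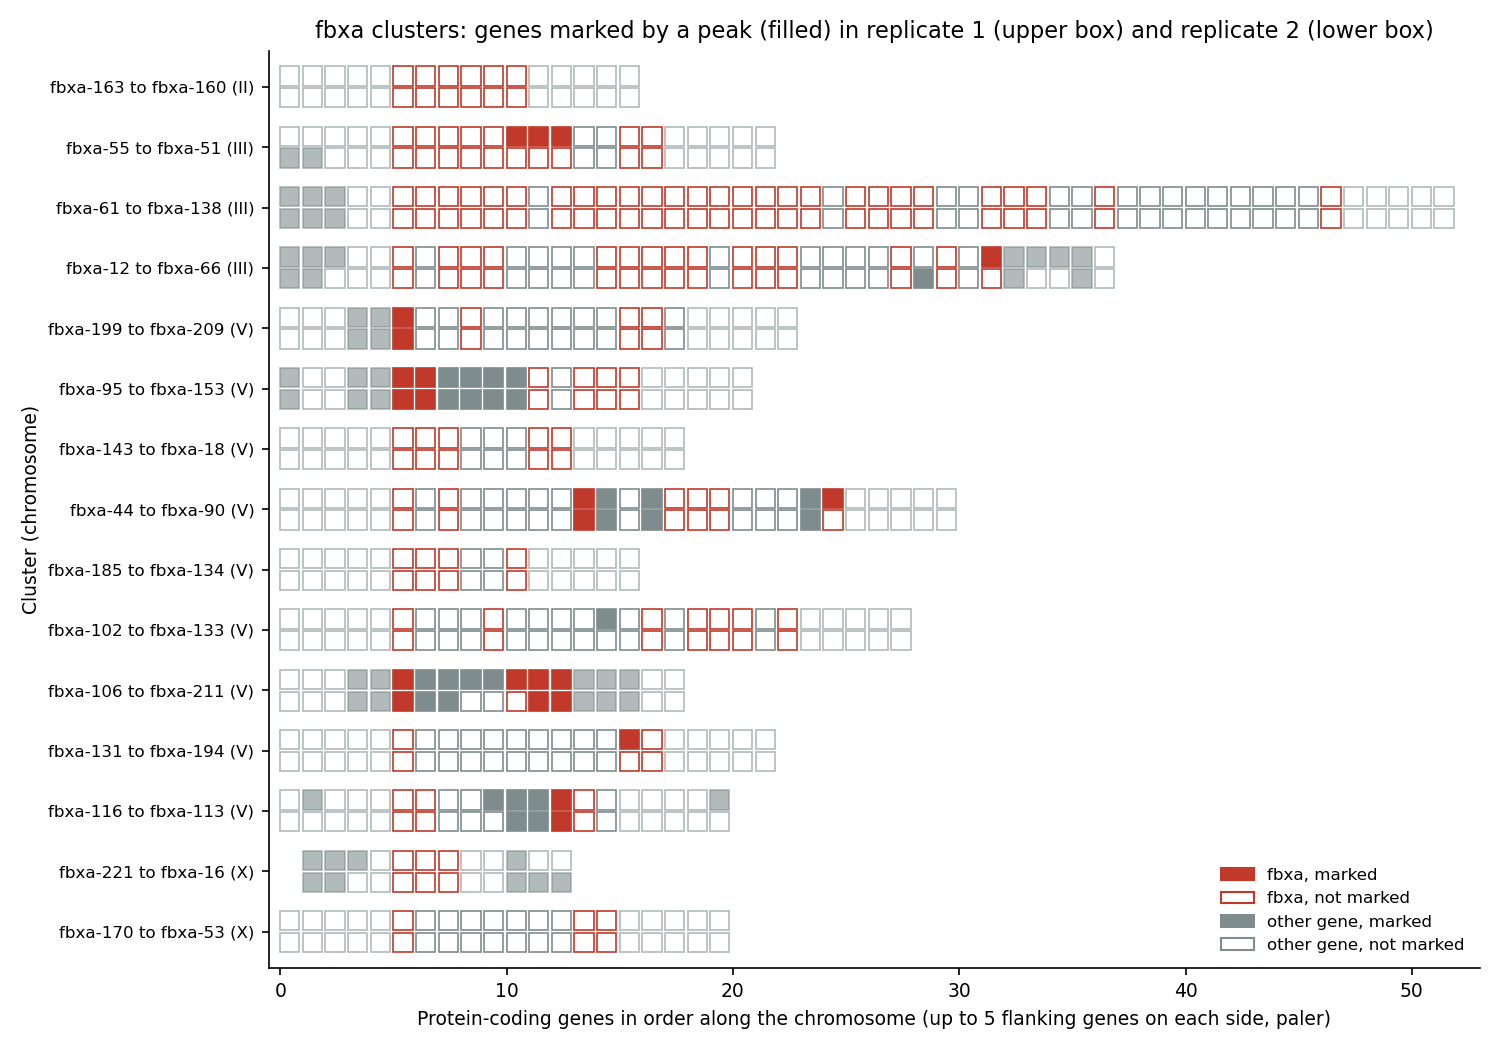
Each row is an fbxa cluster and each column of boxes a protein-coding gene in order along the chromosome, with replicate 1 in the upper box, replicate 2 in the lower, filled where the gene is marked, red for fbxa and grey for other genes, and up to 5 paler flanking genes on each side. The 27-gene cluster of III is empty in both replicates with marked genes to its left. Inside the cluster from fbxa-106 to fbxa-211 on V, all genes are filled in replicate 1 and some in replicate 2.

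On V the clusters ranged from bare to nearly full. In the cluster from fbxa-106 to fbxa-211, all 4 fbxa genes were marked in replicate 1 and 3 in replicate 2, and peaks covered 50.1% and 17.04% of its 46.5 kb. In the cluster from fbxa-95 to fbxa-153, only fbxa-95 and fbxa-94 of the 6 were marked, in both replicates, and 4 of the 5 other genes between its ends were marked too. The last gene, fbxa-153, lay 17.7 and 23.9 kb from a peak. In the cluster from fbxa-44 to fbxa-90, fbxa-206 was marked in both replicates and fbxa-90 in replicate 1, while the first gene, fbxa-44, lay 26.1 and 26.0 kb from a peak. At the other extreme, the clusters from fbxa-143 to fbxa-18 (5 genes) and from fbxa-185 to fbxa-134 (4 genes) had no base under a peak in any list, and none of the 29 and 15 other genes within 50 kb of them was marked. In the cluster from fbxa-102 to fbxa-133, none of the 7 fbxa genes was marked, although peaks covered 8.09% and 5.71% of its length.

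The cluster from fbxa-116 to fbxa-113 at the right end of V holds the sperm gene fog-2 and its close paralogue ftr-1, which are F-box genes with other names and so not counted as members. Both were covered over their whole span in replicate 1 (100% each), and over 99.4% and 100% in replicate 2. The replicate 1 peak ran from 20196340 to 20202860 of V (6521 bp, percentile 75.8 of the scores) and took in ftr-1, fog-2 and fbxa-114. In replicate 2 this stretch held a peak from 20196939 to 20200303 and another from 20200313 to 20201811. Of the 4 fbxa genes of this cluster only fbxa-114, next to fog-2, was marked, as given above. The fbxa genes at both ends of the cluster were not.

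Unmarked fbxa genes mostly lay far from any peak. Of the 140 that neither replicate marked, 114 (81.4%) were more than 10 kb from the nearest replicate peak, against 62.9% of the 13074 other genes without a mark. The median distance was 32.8 kb for these fbxa genes and 15.98 kb for the others. On III the medians were 39.9 kb for 55 fbxa genes and 6.65 kb for 1094 others, and on V they were 21.3 kb for 52 and 20.9 kb for 3900. The farthest members were fbxa-185 and fbxa-188, neighbours on V, at 175.6 and 169.3 kb, and fbxa-170 on X, at 173.9 kb. At the near end, fbxa-125 on I lay 0.178 kb from a replicate 1 peak and was marked only in the series-wide list, over 36.5% of its span.

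**Figure D4:**
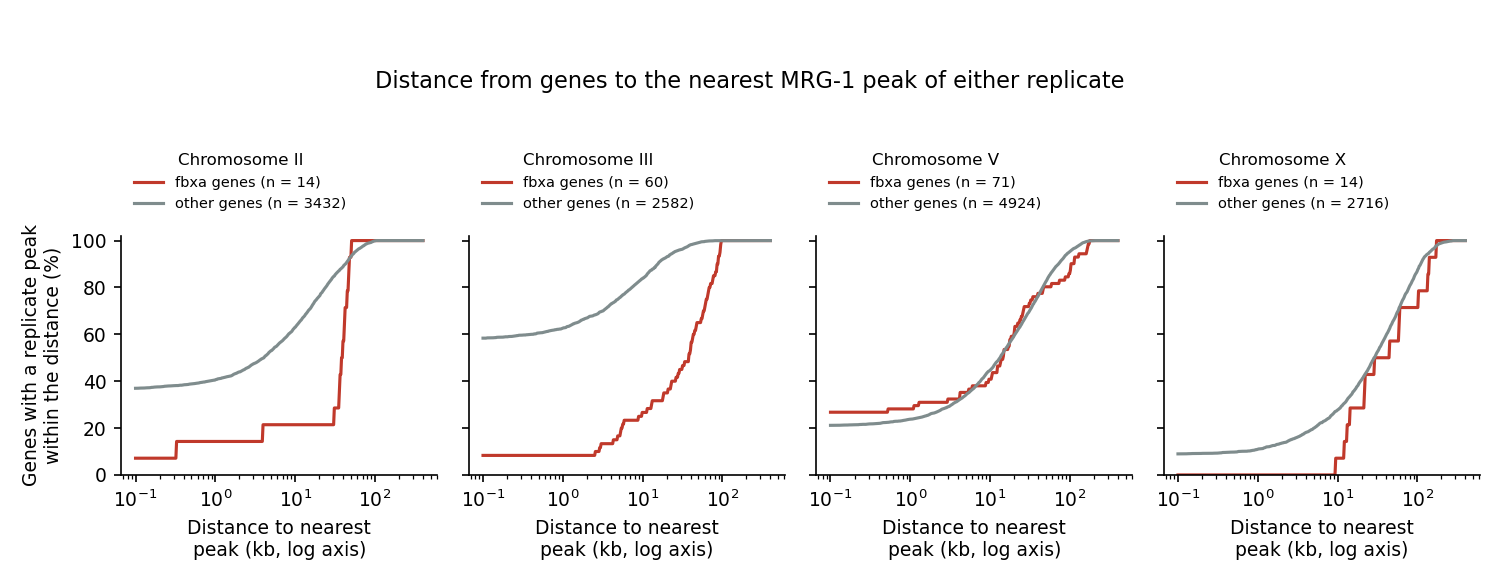
Percent of genes that have a peak of either replicate within the distance on the x axis (kb, log scale), for fbxa genes and all other genes of chromosomes II, III, V and X. On III the fbxa curve stays far to the right of the other genes (median of unmarked genes 39.9 against 6.65 kb), and on V the curves lie close together.

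The other lettered F-box families were also rarely marked. Of the 104 fbxb genes, 6 were marked in replicate 1 and 4 in replicate 2 (5.77% and 3.85%), and of the 48 fbxc genes, 8 and 4 were (16.7% and 8.33%). The fbxb genes lie mostly on II (58 of 104) and the fbxc genes on II (35) and IV (13), so their shares rest on other chromosomes than those of fbxa. On III, where no fbxa gene was marked in both replicates, 2 of 8 fbxb genes were. The mean over replicates was 13.5% ± 5.82 for fbxa, 4.81% ± 1.36 for fbxb and 12.5% ± 5.89 for fbxc (SD, n = 2 each): fbxa and fbxc overlapped in their spread.

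Apart from the Skp1-related genes, most genes of the ligases in which F-box adapters assemble were marked far more often. Of a list of 49 ubiquitin ligase genes, 48 matched the gene table, and 29 were marked in each replicate (60.4%), 27 of them in both. Cullins, the scaffolds, were marked in 5 of 6 cases in both replicates. RING subunits, which bring the ubiquitin-loaded enzyme, were marked in 2 of 2 (rbx-1 and rbx-2). Genes of the NEDD8 pathway, which controls cullin activity, were marked in 5 of 6 cases in replicate 1 and 6 of 6 in replicate 2. Those of the COP9 signalosome, which removes NEDD8, were marked in 6 and 5 of 6. Among 6 F-box genes with names of their own, 4 and 5 were marked, and lin-23 and sel-10, adapters in cell cycle and Notch regulation, were covered over 100% of their spans in replicate 1 and 99.1% and 100% in replicate 2. The ubiquitin-activating enzyme gene uba-1 and the conjugating enzyme gene ubc-3 were marked in both replicates. By contrast, 5 and 4 of the 20 matched Skp1-related genes were marked (25% and 20%), against 30.2% and 28.1% of all protein-coding genes. The marked Skp1-related genes included skr-1 and skr-2, which pair with cul-1, at 100% of their spans in both replicates. The Skp1-related genes are themselves a family of duplicates and are short, with a median span of 582 bp.

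No gene of a ligase known from stress responses was marked. During the transcriptional response to intracellular pathogens, C. elegans uses a ligase in which cul-6 is the cullin, skr-3, skr-4 and skr-5 are Skp1-like adapters, and fbxa-75 and fbxa-158 are F-box members. None of these 6 genes was marked in any of the 3 lists. Most genes are unmarked, however: neither replicate marked 13214 of all 19971 protein-coding genes. The same held for 140 of the 170 fbxa genes and 15 of the 20 Skp1-related genes. The absence of marks on 6 genes is therefore not read as a trait of this ligase. The gene fbxa-75 sits inside the largest cluster of III, 93.8 kb from the nearest peak in each replicate, and fbxa-158 in the cluster of II from fbxa-163 to fbxa-160, at 39.8 and 118.8 kb. The other 5 cullins, cul-1 to cul-5, were marked in both replicates, over at least 90.7% of the span in replicate 1. In replicate 2 the share covered ran from 63.1% (cul-2) to 99.1% (cul-4).

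**Figure D5:**
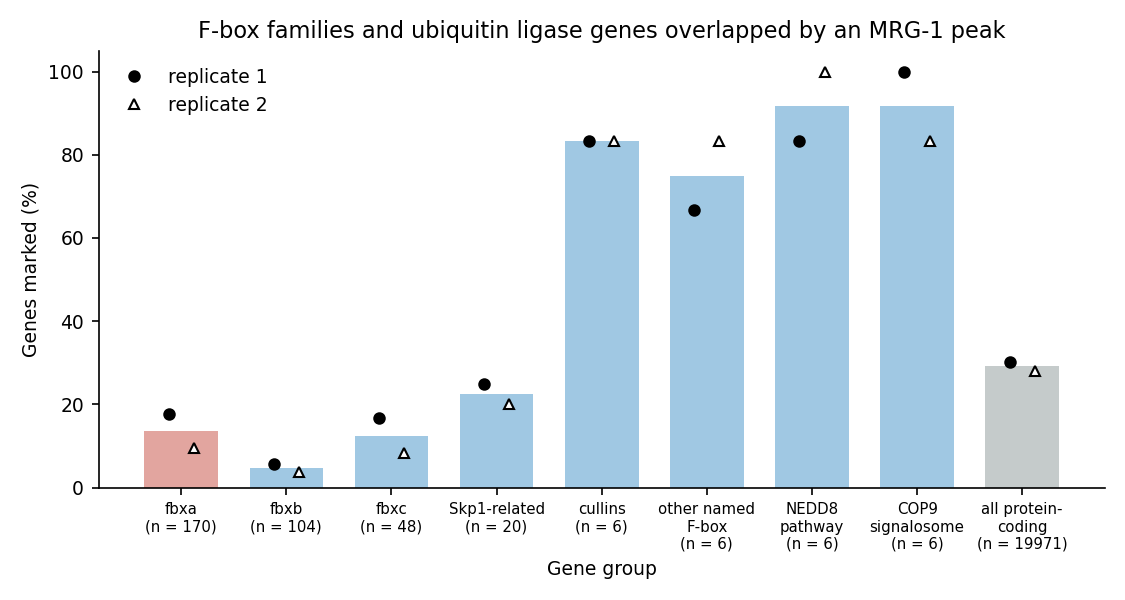
Percent of genes marked for the 3 lettered F-box families, for groups of ubiquitin ligase genes and for all protein-coding genes; bars are means of both replicates, symbols the replicates and n the number of genes. The fbxa, fbxb and fbxc bars lie below 14%, under all protein-coding genes at 29.1%, and the cullins stand at 83.3%.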

How the data were processed

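Extracts of ground adults were fixed for 10 minutes in 1% formaldehyde, sheared by sonication and immunoprecipitated, per the labels' protocols. The submitters' processing notes name BWA and the build ce10. The peaks use WormBase WS220, per the file headers, and the source column names MACS for both replicate lists and MACS v2 for the series-wide one. The choice of thresholds, pooling and input is not given in the sources used here. The score deposited by the authors with each peak is undefined and served only to rank peaks within a list.

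Gene spans, symbols and biotypes came from the RefSeq table of WBcel235. The builds were taken to differ by no more than about 200 bp, which the files cannot test, so spans were also extended and shortened by 200 bp. None of the table's coordinates are printed. The table has no strand. The fbxa, fbxb and fbxc genes were found by symbol, and all members were counted with no filter. Arms are the outer 25% on each side, up to the last peak end. Named genes were those marked by both replicates (at most 25), ends of clusters of 5 or more, fbxa-75 and fbxa-158, genes at least 50% covered in 1 replicate and unmarked in the other, and the 3 farthest from a peak; others named (genes sharing a peak, genes in small clusters, ligase genes) were chosen after their values were seen. Members and lists were chosen with earlier results of these data known. Overlap code was tested on simulated data. Python 3.11.15, numpy 2.4.6, pandas 2.3.3 and matplotlib 3.10.9 were used.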

Additional observations from a re-analysis of the deposited data

How the results depend on the processing

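The fbxa share stayed below that of all genes under every alternative run, though not clearly below that of genes within 50 kb (given above); it ranged from 9.41% to 17.6% when 1 replicate was left out, was 14.1% and 12.6% with spans extended and shortened by 200 bp, and moved to 7.35% when each list was reduced to its top 50% by score, which holds fewer peaks (all genes then stood at 22.2% and 23.3% in replicates 1 and 2). Under that setting 5 rather than 16 fbxa genes were marked by both replicates. The 200 bp changes altered 1 to 2 fbxa calls per replicate at most. On III the gap between fbxa and other genes was -45.02 points, from -50.7 to -39.4 with 1 replicate left out. It was -33.6 with at least 50% of the span covered, -35.5 for the top 50% by score, -33.3 for the middle base and -24.95 against genes within 50 kb. On II the gap of -25.1 was -26.4 and -23.7 with spans extended and shortened, -20.7 with 50% covered, -16.8 for the middle base and -27.5 in the series-wide list, and it reversed to 1.93 against genes within 50 kb. On V the gap of 2.66 points reversed to -4.15 for the top 50% by score and to -1.36 without replicate 1, and was 6.68 without replicate 2; the cause was not tested. Clusters numbered 14 and 16 with gaps of up to 20 and 100 kb. The middle base, genes within 50 kb and the set without III were added after the data were seen. The alternative on gene starts was not run, since the table has no strand. No paired analysis was possible because only ChIP samples carry peak lists here, and they form 1 group.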

Other observations

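The fbxa pseudogenes, which the counts above leave out, were marked in some places more often than the genes. Of 52, 13 were marked in replicate 1 and 11 in replicate 2 (25% and 21.2%), against 10.6% and 8.67% of the 1869 other pseudogenes. Of these 13 and 11, 7 lie on chromosome I, so the share over all chromosomes rests largely on that chromosome. On chromosome I all 7 fbxa pseudogenes were marked in both replicates, against 22.8% and 22.2% of the other pseudogenes of I. Among them, fbxa-217, fbxa-122 and fbxa-124 were covered over 100% of their spans in both replicates, and fbxa-203 over 48.4% and 45.2%. On V, 5 and 4 of 21 were marked, against 5.03% and 3.44% of the other pseudogenes there. On III none of 13 was marked in any list, against 19.4% and 20.1% of the other pseudogenes of III in replicates 1 and 2. Several pseudogenes of I stand beside each other, so 1 peak can mark more than 1 of them.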
